A study of Mus musculus with 4 samples.

Results

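In mouse retina RNA-Seq libraries, 43 protein-coding genes, most of them genes of the ocular lens, were far higher in 1 control library than in the other 3 libraries. They were selected on these counts. A gene was taken if it reached at least 5 CPM (counts per 1000000 counts of its library) in that library and was there at least 4 times its level in each of the other libraries, and genes whose symbol begins with Col were left out. Of the 48897 genes listed, 21835 were protein-coding and not named Col, 11599 of these reached 5 CPM in that library, and the 43 genes were 0.371% of the 11599. On lists of lens genes written for this work were 30 of the 43, and 13 were on none of them. Absence from these lists does not show that a gene is not made in the lens. Because the counts of all 4 libraries chose the genes, their levels are given below as a description, with no test.

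The study inhibited miR-124-3p in the developing retina of wild-type C57BL/6 mice (C57BL/6J in the study's methods). On postnatal day 3, the left eye received 1 μl with 0.6 nmol of a miR-124-3p antagomir by intravitreal injection (the anti-miR-124 group), and the right eye received the same amount of a scrambled control (the NC group). Retinas were taken on postnatal day 9 and pooled, the retinas of a group came from more than 1 litter, and each group had 2 libraries. Injection into the vitreous, retinal dissection and pooling were therefore shared by all 4 libraries, and no uninjected eye was among them. The count columns carry the eye and a number that 1 right and 1 left eye share, and the libraries are named here NC A, anti-miR-124 A, NC B and anti-miR-124 B by that number. The library high in the genes described was NC A. Nothing in the labels says that the pools of a group were wholly separate, so the spread between the 2 libraries of a group may be partly technical.

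The lens is a transparent body made of an anterior epithelium and of long fiber cells that lose their nuclei and organelles as they mature. Fiber cells fill their cytoplasm with crystallins, very abundant soluble proteins of the α, β and γ families, and join each other through dedicated membrane channels and a cytoskeleton of beaded filaments. In the newborn mouse the lens fills much of the eye and lies against the vitreous, in front of the retina. Some lens genes, such as Cryab and several transcription factors, are also used by retinal cells.

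All 16 crystallin genes on the list fixed for this work were among the 43 genes, and the clearest shared feature in the sequence before their starts was found in the γ-crystallins. Cryga, Crygb, Crygc, Crygd and Cryge lie next to each other within 54807 bases of chromosome 1 (chr1:65048557-65103363), and Crygf lies on the same chromosome. The stretches below are from RefSeq's start-site windows on GRCm38.p6, written 5′ to 3′ on the gene's own strand. They are shown because each of the 6 genes holds TTTGTG followed, 29 to 32 bases later, by TATATA, and both are in capitals.

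Cryga (chr1:65103387-65103450, reverse strand): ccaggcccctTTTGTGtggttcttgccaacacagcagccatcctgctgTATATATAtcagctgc
Crygb (chr1:65082305-65082368, reverse strand): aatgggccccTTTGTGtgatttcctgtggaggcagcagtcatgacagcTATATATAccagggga
Crygc (chr1:65073546-65073606, reverse strand): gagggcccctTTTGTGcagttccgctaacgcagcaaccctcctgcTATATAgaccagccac
Crygd (chr1:65063455-65063516, reverse strand): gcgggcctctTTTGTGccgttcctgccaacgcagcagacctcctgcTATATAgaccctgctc
Cryge (chr1:65051166-65051227, reverse strand): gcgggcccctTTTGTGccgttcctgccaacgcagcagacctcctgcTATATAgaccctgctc
Crygf (chr1:65926444-65926505, forward strand): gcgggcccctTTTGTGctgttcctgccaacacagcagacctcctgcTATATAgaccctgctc

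TATATA was found in 5.67% of all 32851 windows of 250 bases before and 50 after a start, TTTGTG in 17.7%, and both were in all 6 of these γ-crystallin windows (both strands were searched, and TATATA reads the same on each). The motifs were picked after the sequences had been seen, and a match is only a match of letters. A start-site window was found for 38 of the 43 genes, and Cryab, Ppl, Hsf4 and Wnt7b were among those without one. Among the 44 windows of the 38 genes, TGCTGA, the core of the site that Maf family factors bind, was present in 21 (47.7%), against 19.5% of all windows. TATAAA was in 15.9% of these windows and in 13.6% of all windows. The 120 bases before the starts of Cryaa and Cryba1, the 2 most abundant of the 43 genes, are shown with TGCTGA and both TATA motifs in capitals. Each holds TGCTGA and, closer to the start, one of the TATA motifs.

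Cryaa (chr17:31677811-31677930, forward strand): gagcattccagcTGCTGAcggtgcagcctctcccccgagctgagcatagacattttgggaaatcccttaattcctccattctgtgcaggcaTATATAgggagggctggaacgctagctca
Cryba1 (chr11:77725294-77725413, reverse strand): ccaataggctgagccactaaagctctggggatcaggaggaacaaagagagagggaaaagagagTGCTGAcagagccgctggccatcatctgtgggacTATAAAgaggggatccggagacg

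The 6 genes are also alike in what they encode, which bears on how reads could be assigned among them. The first 60 coding bases (GENCODE M21) are shown with a capital wherever the 6 genes do not all share the base, and 54 of the 60 are shared.

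Cryga: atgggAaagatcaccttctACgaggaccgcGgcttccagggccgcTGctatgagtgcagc
Crygb: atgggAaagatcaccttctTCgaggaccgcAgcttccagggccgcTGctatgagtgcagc
Crygc: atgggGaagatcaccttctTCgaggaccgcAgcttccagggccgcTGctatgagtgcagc
Crygd: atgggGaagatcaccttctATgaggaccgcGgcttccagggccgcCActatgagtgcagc
Cryge: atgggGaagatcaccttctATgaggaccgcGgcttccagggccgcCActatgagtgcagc
Crygf: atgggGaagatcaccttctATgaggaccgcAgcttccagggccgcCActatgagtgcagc

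Over the whole coding sequence, Cryge and Crygf were 98.1% identical, Crygd and Cryge 91.6%, and Crygc and Crygf, the least alike, 79.3%. Crygb and Crygc share an identical run of 221 bases, and Crygd and Cryge one of 153 bases. How reads that match several of these genes were counted is not given in the sources used here, so the levels of the single γ-crystallins are uncertain.

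NC A stood apart from the other 3 libraries in these genes by far more than those libraries differed among themselves. The 43 genes held 348550 of the 16317239 counts of NC A, or 2.14%. They held 1895 counts in anti-miR-124 A (0.0110% of 17150849), 1731 in NC B (0.00962% of 17992340) and 2275 in anti-miR-124 B (0.0121% of 18726963). The libraries of the NC group were thus the highest and the lowest of the 4, with both anti-miR-124 libraries between them. In TPM (counts divided by gene length and scaled to a sum of 1000000 in each library), which weights the short crystallin genes more, the shares were 6.79% in NC A, 0.0278% in anti-miR-124 A, 0.0226% in NC B and 0.0297% in anti-miR-124 B. The cells that made this RNA were not identified. In a bulk library, more such cells and more RNA per cell cannot be told apart. No library was a copy of another, with a chi-square per degree of freedom over genes of 3.44 to 9.20 between the other libraries and of 24.5 to 28.2 between each of them and NC A. These values include the 43 genes, which the rule chose for being high in NC A. The larger values for NC A therefore do not show that it differed more in the remaining genes.

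The same rule was applied with each of the other libraries as the high one. It found 0 genes for anti-miR-124 A (0.0% of 11505) and 0 genes for NC B (0.0% of 11505). For anti-miR-124 B it found 33 genes (0.281% of 11723).

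**Figure D1:**
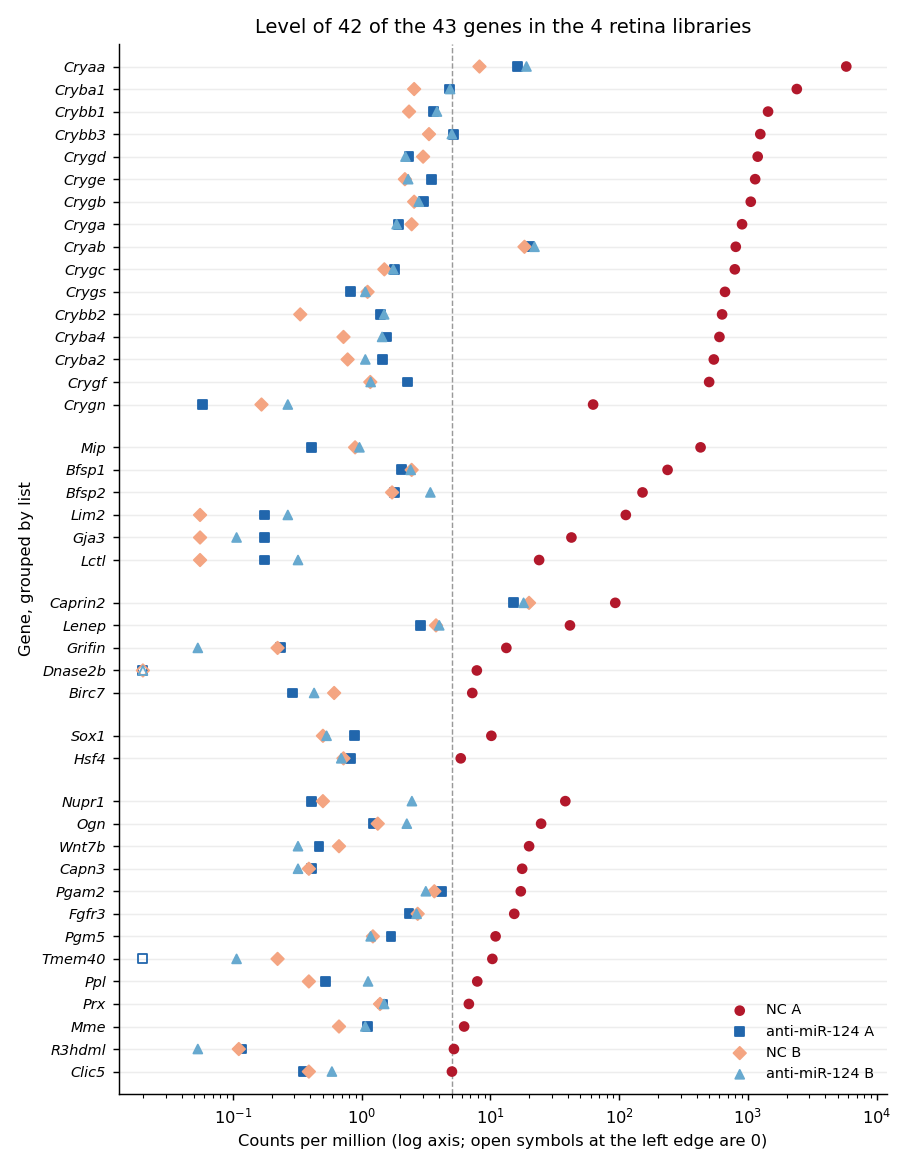
Level of 42 of the 43 genes in the 4 libraries, in CPM on a log axis. Rows are genes, grouped from the top as crystallins, fiber membrane and cytoskeleton, enzymes and other lens proteins, transcription factors, and genes on no lens list; red circles are NC A and the dashed line is the level of 5. The circles stand 4.10 to 597 times above the next highest library, which is what the genes were selected for, besides Dnase2b, which is at 0 there. The other 3 libraries lie closer to each other than to NC A but are not equal. Nupr1, for one, is at 0.41, 0.50 and 2.46 CPM in anti-miR-124 A, NC B and anti-miR-124 B.

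The α-crystallins are small heat shock proteins that keep other proteins soluble. Cryaa, which is largely restricted to the lens, had 94776 counts in NC A, 279 in anti-miR-124 A, 148 in NC B and 357 in anti-miR-124 B. In CPM these were 5808, 16.3, 8.23 and 19.1, so that NC A was 305 times the next highest library. Cryab, which many tissues express, had 13133 counts in NC A and 345, 331 and 412 in anti-miR-124 A, NC B and anti-miR-124 B. The other 3 libraries were thus close to each other in Cryab, and NC A was 36.6 times the highest of them, the smallest ratio of any crystallin.

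The 6 β-crystallins, structural proteins of the fiber cytoplasm, were 241 to 493 times higher in NC A than in the next library. Cryba1 had 39120 counts in NC A, 82 in anti-miR-124 A, 46 in NC B and 91 in anti-miR-124 B. Crybb1 had 23392, 62, 42 and 72 counts in the same order, and Crybb3 had 20366, 89, 60 and 94. Each of these genes was lowest in NC B, and so were Crybb2 (10284, 24, 6 and 28 counts), Cryba4 (9807, 27, 13 and 27) and Cryba2 (8868, 25, 14 and 20). Cryba4, Crybb1, Crybb2 and Crybb3 lie together on chromosome 5 (chr5:112246492-113082233). Cryba4 and Crybb1 overlap there on opposite strands, and since the counting was not stated to use strand, their counts may share reads.

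The 8 γ-crystallins, which pack the densest part of the lens, were 220 to 597 times higher in NC A than in the next library. Crygs, the member that the lens goes on making after birth, had the largest ratio of all the genes, with 10832 counts in NC A, 14 in anti-miR-124 A and 20 in each of NC B and anti-miR-124 B. The counting interval of that ratio of 597 was 386 to 978 (95%, counting error only). Crygd had 19438 counts in NC A and 40, 54 and 41 in anti-miR-124 A, NC B and anti-miR-124 B, and Cryge had 18578, 60, 39 and 43. Crygb had 17176, 52, 46 and 52 counts, Cryga 14694, 33, 44 and 35, Crygc 12914, 31, 27 and 33, and Crygf 8158, 39, 21 and 22. By CPM, NC B was the lowest library in 4 of the 8 γ-crystallins and the highest of the other 3 in Crygd, Cryga and Crygs, whereas it was the lowest in 6 of 6 β-crystallins. Crygn, a divergent member, was the least abundant crystallin, with 1024 counts in NC A and 1, 3 and 5 in the other libraries.

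Per length, 15 of the 16 crystallins were among the 100 most abundant genes of NC A by TPM, and 5 genes were among its 10 most abundant. Cryaa ranked 2 with 14712 TPM, Cryba1 ranked 5 with 9204, Crygd 6 with 5769, Cryge 7 with 5453 and Crygb 9 with 5113. In anti-miR-124 A, NC B and anti-miR-124 B, Cryaa had 44.0, 22.4 and 51.7 TPM and Cryab 49.4, 45.5 and 54.2 TPM. Cryab and Cryaa were therefore at similar levels in the 2 anti-miR-124 libraries and Cryab was the higher in NC B, whereas in NC A Cryab (1850 TPM) was far below Cryaa.

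The mix of the crystallins differed between NC A and the other libraries. In NC A, α-, β- and γ-crystallins made up 33.5%, 34.7% and 31.9% of the crystallin counts. In the other libraries the α-crystallins made up more, with 51.9% in anti-miR-124 A (exact 95% binomial interval 49.0 to 54.7), 52.4% in NC B (49.1 to 55.7) and 56.9% in anti-miR-124 B (54.2 to 59.5). The β-crystallins took 25.7% in anti-miR-124 A (23.2 to 28.3), 19.8% in NC B (17.3 to 22.5) and 24.6% in anti-miR-124 B (22.3 to 26.9). The γ-crystallins took 22.4% (20.1 to 24.9), 27.8% (24.9 to 30.8) and 18.6% (16.5 to 20.7) in the same libraries. These intervals cover counting error only and rest on 1203, 914 and 1352 crystallin counts, against 322560 in NC A. The larger α share came from Cryab, which many tissues express. Cryab had 13133 of the crystallin counts in NC A and 345, 331 and 412 in anti-miR-124 A, NC B and anti-miR-124 B. Cryaa, with 94776, 279, 148 and 357 counts, took a smaller share in those libraries than in NC A. Crystallins were 92.5% of the counts of the 43 genes in NC A, and 63.5%, 52.8% and 59.4% in anti-miR-124 A, NC B and anti-miR-124 B.

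**Figure D2:**
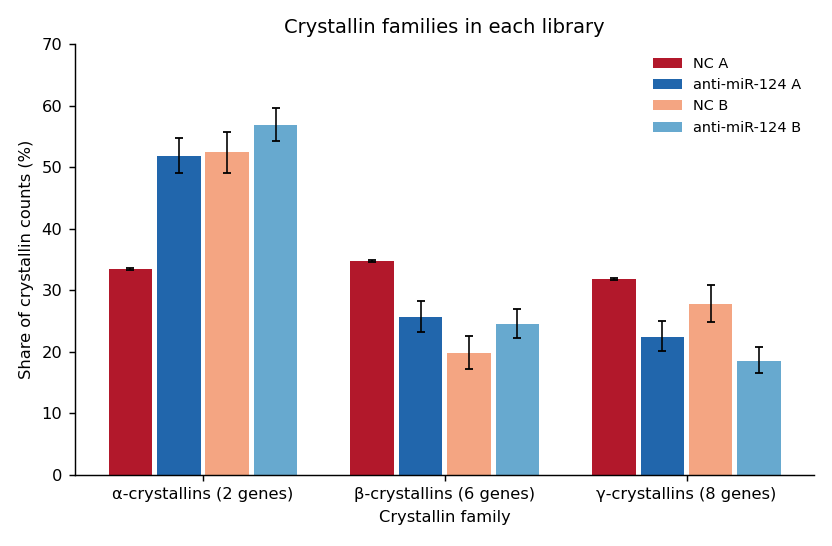
Share of all crystallin counts that fell on the α-, β- and γ-crystallins in each library, in percent, with exact 95% binomial intervals as error bars. In NC A the shares were 33.5%, 34.7% and 31.9%, while α-crystallins took 51.9% to 56.9% in the other 3 libraries. The larger α share there came from Cryab and not from Cryaa.

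Genes of the fiber cell membrane and cytoskeleton were high in NC A as well. Of the 14 genes on that list, 7 were among the 43. Mip (aquaporin-0), the main membrane protein of fiber cells, had 6998 counts in NC A, 7 in anti-miR-124 A, 16 in NC B and 18 in anti-miR-124 B, which made NC A 446 times the next library. A non-coding gene on the other strand of Mip, Gm26847, had 3832, 10, 22 and 22 counts, and reads of the pair cannot be told apart without strand. Gja3, a connexin of fiber cells, had 695, 3, 1 and 2 counts in the order NC A, anti-miR-124 A, NC B and anti-miR-124 B. Bfsp1 (filensin) and Bfsp2 (phakinin), the partners of the beaded filament, had 3878, 35, 44 and 45 counts and 2478, 31, 31 and 64 counts. Lim2, a membrane protein of fiber junctions, had 1838, 3, 1 and 5 counts, and Lctl, a klotho-related protein, had 390, 3, 1 and 6. The genes named here were above 20 CPM in NC A and below 4 CPM in every other library.

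Other genes of that list are shared with neurons and did not meet the rule. Cdh2 (N-cadherin) had 5147 counts in NC A and 5462, 5498 and 6158 in the other libraries, and Ank2, Nrcam, Efna5, Tmod1 and Epha2 were at most 1.05 times the highest other library.

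Among enzymes and other lens-enriched proteins, 5 of 11 genes were selected. Dnase2b, the nuclease that degrades the DNA of fiber cell nuclei, had 128 counts in NC A and 0 in each of the other libraries. Against a floor of 3 counts per library, NC A was at least 44.8-fold higher. Grifin, a galectin-related protein of fiber cells, had 217, 4, 4 and 1 counts in NC A, anti-miR-124 A, NC B and anti-miR-124 B, and Birc7, an inhibitor of apoptosis, had 118, 5, 11 and 8. Lenep, a protein of the lens epithelium, had 677, 49, 68 and 75 counts. Caprin2, an RNA-binding protein, had 1522, 260, 359 and 339 counts and a ratio of 4.67, close to the limit of 4. Lgsn, a lens protein related to glutamine synthetase, had 127, 15, 21 and 43 counts and Hspb1, a small heat shock protein, 162, 67, 58 and 51, and both fell short of the ratio, at 3.39 and 2.54. Tdrd7, Akr1b3, Sord and Galk1 had ratios of 0.972 to 1.18.

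Of 12 lens transcription factors, Hsf4 and Sox1 were selected. Hsf4, a heat shock factor of the lens, had 96 counts in NC A, 14 in anti-miR-124 A and 13 in each of NC B and anti-miR-124 B. Sox1, which acts on γ-crystallin genes, had 166, 15, 9 and 10 counts, and Gm5607, a non-coding gene on the same strand that overlaps it, had 134, 4, 5 and 6. Foxe3, a factor of the lens epithelium, had 40 counts in NC A and 0 in every other library, and Pitx3 had 51, 0, 0 and 1, so that both were all but absent elsewhere but stayed under 5 CPM in NC A. Maf, a driver of fiber differentiation that is also used in the retina, had 1140 counts in NC A and 570, 612 and 642 in the other libraries, a ratio of 2.04. Pax6, Prox1, Six3, Mab21l1 and Mafg, which retinal cells also express, had ratios of 0.863 to 0.961. Gata3 had 11, 0, 4 and 5 counts.

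**Figure D3:**
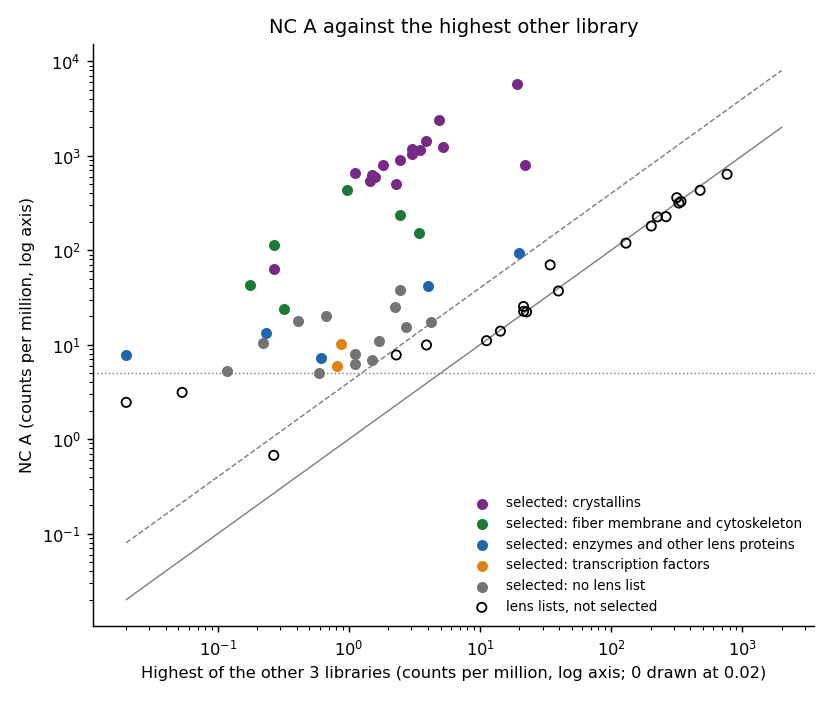
Level in NC A in CPM against the highest of the other 3 libraries, both on log axes, with selected genes filled and lens-list genes that were not selected as open circles. The solid line marks equal levels, the dashed line the ratio of 4 and the dotted line the level of 5. The crystallins lie 36.6 to 597 times above equality, and most open circles lie on the line of equal levels.

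The remaining 13 genes are on no lens list, and together they made up 3029 of the 348550 counts in NC A. Ogn (osteoglycin), a proteoglycan on the list of fibroblasts, had 404 counts in NC A, 21 in anti-miR-124 A, 24 in NC B and 42 in anti-miR-124 B. Nupr1, a stress-induced nuclear protein, had 623, 7, 9 and 46 counts. Wnt7b, a secreted Wnt ligand, had 326, 8, 12 and 6, and Capn3, a calpain with forms made in muscle and lens, had 288, 7, 7 and 6. Fgfr3, a receptor for fibroblast growth factors, had 250, 40, 49 and 50 counts, and Tmem40 had 169, 0, 4 and 2. R3hdml had 85, 2, 2 and 1 counts, and its ratio of 44.7 rested on 2 counts in the next library, with a counting interval of 12.0 to 375. The ratios of Capn3 and Tmem40 were 43.2 and 46.6.

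Other genes of this group were lower and closer to the limits. Pgam2, the muscle form of phosphoglycerate mutase, had the smallest ratio, 4.10, with 281 counts in NC A and 72, 66 and 59 in the other libraries, and the interval of its ratio (3.16 to 5.39) included 4. Prx (periaxin), a scaffold of Schwann cells and fiber cells, had 111, 25, 25 and 28 counts and an interval of 2.98 to 7.16. Mme (neprilysin), a membrane peptidase, had 102, 19, 12 and 20 counts, Pgm5, a protein of adherens junctions, 179, 29, 22 and 22, and Ppl (periplakin), a desmosomal linker, 129, 9, 7 and 21. Clic5, an intracellular chloride channel protein, had 82, 6, 7 and 11 counts and was just over the level, at 5.03 CPM.

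The 5 genes just outside the ratio lay between 3.46 and 3.94. Nid1 (nidogen), which links laminin to collagen IV, had 2145 counts in NC A and 546, 584 and 629 in the other libraries, a ratio of 3.91. Htra3, a secreted protease, had a ratio of 3.94, Dock5 of 3.83, Sfrp1, a secreted Wnt antagonist, of 3.50 and Fabp5, a fatty acid binding protein, of 3.46. Among the Col-named genes that the rule leaves out, Col4a4, a chain of collagen IV, would have passed with 332 counts in NC A and 69, 56 and 73 in the other libraries, and Col4a3 had a ratio of 3.97. Of other gene types, 4 would have passed, namely Gm26847, Gm5607, Gm34283 and E130119H09Rik. Just under the level were Wnt7a (4.78 CPM), Myo7b (4.60) and Chrng (4.17), and Myo7b had 0 counts in every other library.

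The genes fell into a steep and a shallow part. In 19 genes NC A was over 100 times the next library, in 9 it was 20 to 100 times, and in 14 it was under 20 times, besides Dnase2b. The next highest library was an anti-miR-124 library in most genes and NC B in 9. All but 4 of the 43 genes (Cryaa, Cryab, Crybb3 and Caprin2) were below 5 CPM in all 3 other libraries. The genes were nevertheless not at 0 there, as 41, 42 and 42 of the 43 had at least 1 count in anti-miR-124 A, NC B and anti-miR-124 B, and 36, 37 and 38 had more than 3 counts. Over the 43 genes, the order of TPM values had a Spearman's rho of 0.76 to 0.79 between NC A and the other libraries and of 0.94 to 0.95 among the other libraries. Within the 16 crystallins, these values were 0.66 to 0.69 and 0.88 to 0.96. The correlations are across genes, which share gene length and library and are not independent, and the rule used all of these values.

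The genes were short, with a median length of 2008 bases and of 811 for the crystallins, against 3866 bases for all protein-coding genes that reached 5 CPM in NC A. The most members on any chromosome were 7 on chromosome 1 and 7 on chromosome 5.

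Counts over the whole series were fitted with edgeR's quasi-likelihood test, which compared the 2 anti-miR-124 libraries with the 2 NC libraries in 17766 genes with enough counts. It called 0 genes at an adjusted p under 0.05 (0.0%), 694 genes had an unadjusted p under 0.05, and DESeq2 called 36 genes. Of the 43 genes, 34 passed the filter on low counts. Their fitted log2 fold change (anti-miR-124 against NC) had a median of -5.32, against 0.00066 over all genes, and it was -7.38 (standard error 2.40) for Cryaa and -8.47 (standard error 2.54) for Crygs. Without NC A the median turned to 0.26, with 1.11 (standard error 0.20) for Cryaa and -0.23 (standard error 0.57) for Crygs, so the apparent fall of lens genes in the anti-miR-124 group rested on NC A. That fit has a single NC library, assumed to vary like the others, and the rule used the same counts, so these are values with no test.

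The share that the 43 genes took in NC A also moved the scaled values of the other genes. Over 17732 tested genes other than the 43, the median log2 ratio of NC A to the mean of the other libraries was -0.03 in CPM and 0.004 when the 43 genes were left out of the totals. Taken among the libraries other than NC A, each against the mean of the rest, this median had a standard deviation of 0.023 in CPM. The CPM value of NC A was close to that spread. In TPM it was -0.12, with 23.7% of these genes above the mean of the other libraries. Leaving the 43 genes out of the TPM sum brought it to -0.03, with 43.3% above. Scaling with TMM factors gave a median of -0.006. Leaving the 43 genes out of the edgeR fit shifted the log2 fold changes of the other genes by a median of 0.0064, with 0 genes called and 706 at an unadjusted p under 0.05.

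The summed levels of markers of other eye tissues differed far less between NC A and the other libraries than that of the crystallins. The rule had chosen all 16 crystallins for being high in NC A, so this contrast was set by the selection and is no test. The lens lists themselves differed in this, as the enzymes and other lens proteins summed to 602 CPM in NC A against 370 to 403 and the lens transcription factors to 1392 against 1402 to 1435. Without the selected genes, the enzyme list summed to 439 CPM in NC A against 346 to 380. The transcription factors then summed to 1376 against 1400 to 1434, and the fiber membrane and cytoskeleton genes to 1249 against 1254 to 1372. The 19 retinal genes, which fit the labelled tissue, summed to 9923 CPM in NC A and to 10333, 10668 and 10320 CPM in anti-miR-124 A, NC B and anti-miR-124 B. The 13 genes of cornea and surface epithelium summed to 13.4 CPM in NC A against 10.8, 8.89 and 9.29, so NC A was the highest. The list was low in every library. Of its genes, 5 were at 0 in NC A, which says little at this level. Cdh1 (E-cadherin), which lens epithelium also makes, had 81 counts in NC A and 35, 31 and 33 in the other libraries. In NC A, anti-miR-124 A, NC B and anti-miR-124 B, Perp had 74, 82, 52 and 78 counts and Epcam 28, 22, 26 and 16. Krt15 had 22, 28, 27 and 19 counts and Krt12 3, 9, 3 and 10. By CPM, Cdh1 and Epcam were highest in NC A, and Perp, Krt15 and Krt12 were not. Iris and smooth muscle genes summed to 23.4 CPM against 19.6 to 22.2, and skeletal muscle genes to 8.95 against 7.58 to 8.45.

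Of the lists of blood and pigmented cells, both were lowest in NC A. The 12 genes of pigment epithelium and melanocytes summed to 74.6 CPM in NC A and to 126, 95.7 and 100.3 CPM in anti-miR-124 A, NC B and anti-miR-124 B. The 6 erythroid genes summed to 82.5 CPM in NC A and to 308, 143 and 88.5 CPM. Pericyte genes summed to 187 CPM against 136 to 157, endothelial genes to 387 against 408 to 426, ciliary body and trabecular genes to 86.5 against 61.4 to 108, and fibroblast genes other than Ogn to 251 against 250.4 to 413. In the edgeR fit, 0 genes of any of these lists passed the threshold. Whether these cell types bear on the level of the 43 genes was not tested.

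**Figure D4:**
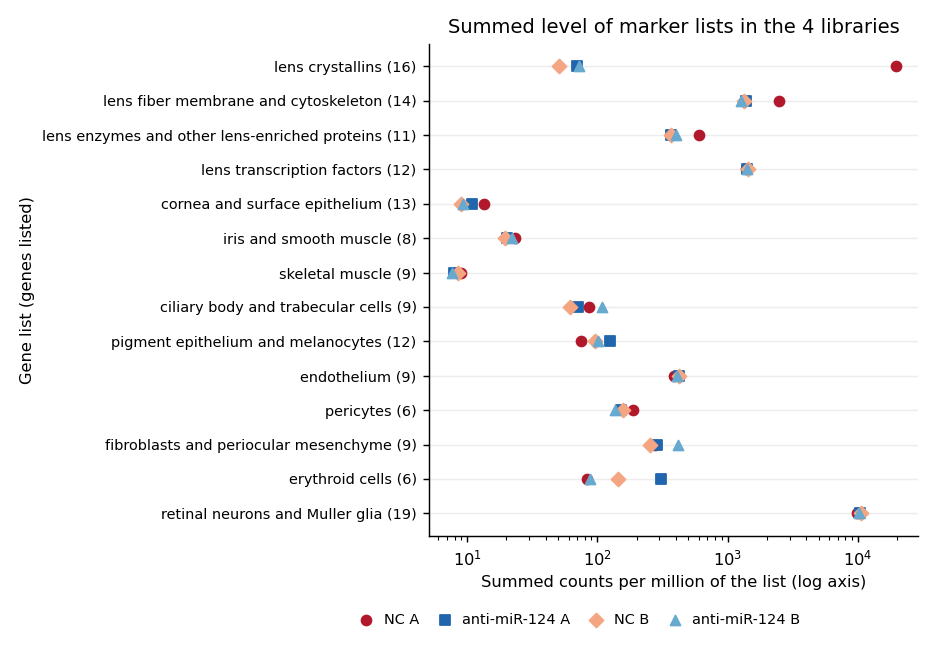
Summed CPM of 4 lens lists and 10 lists of other cell types in each library, on a log axis, with the number of genes in parentheses. The crystallins reach 19768 in NC A and 50.8 to 72.2 elsewhere, while the lens transcription factors and the lists of other tissues differ far less between NC A and the rest. All the crystallins were selected for being high in NC A, so this contrast is no test.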

How the data were processed

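The authors deposited, for 4 RNA-Seq libraries of mouse retina made with a directional kit, the read count of each gene without normalization, with gene length, type and position, and 4 columns of RPKM values that were not used here. The submitters' processing notes name HISAT2 and mm9, without a version. The counting tool and its strand setting are not given in the sources used here. The positions matched GRCm38, as 99.8% of 36834 matched symbols, and all 43 genes described, overlapped RefSeq's GRCm38.p6 annotation.

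Columns were assigned to groups by the eye they name. Libraries held 16317239 to 18726963 counts, and 3 counts corresponded to 0.160 to 0.184 CPM. CPM, TPM and ratios were computed with Python 3.11.15 (numpy 2.4.6, pandas 2.3.3, scipy 1.17.1). Intervals are exact 95% binomial intervals. The groups were compared with edgeR 4.0.16 in R 4.3.3 (TMM scaling, filterByExpr, groups as the only term, 2-sided test, Benjamini-Hochberg adjustment, threshold 0.05), checked on simulated counts, with DESeq2 1.42.0 as an alternative. Standard errors were obtained from the fold change and the F statistic. Promoter sequences are from RefSeq (GRCm38.p6) and coding sequences from GENCODE M21.

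The 43 genes and the 14 gene lists were chosen with earlier results of these data known. Named with values were the 25 genes highest in NC A, genes of the lens lists, those nearest the limits, the 10 highest on no list and up to 5 genes of each other list. Other genes named, such as the non-coding and collagen genes, were chosen after their values were seen. The values of some genes of the lens lists are not reported here.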

Additional observations from a re-analysis of the deposited data

How the results depend on the processing

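The rule gave 43 genes, 68 with a ratio of 2 and 35 to 56 under the other levels, ratios, scalings, gene types and left-out libraries. Their share of the counts of NC A (2.14%) was 2.12% with a ratio of 8, 2.12% for the genes on lens lists and 6.79% of the TPM sum. The median log2 ratio of the other genes in NC A (-0.03) was 0.0036 with the 43 genes left out of the total. The median log2 fold change over the 34 described genes that passed the filter (-5.32) was -3.91 with a replicate block. When 1 library was left out, it ranged from -6.75 without NC B (over all 43 genes, which then passed) to 0.26 without NC A (over 34 genes), where it reversed. The count of genes called (0) was 0 with the replicate block (376 at an unadjusted p under 0.05), 379 of 31982 genes without a filter on low counts, 36 with DESeq2 and 0 under the other scalings. The genes described were chosen on the same counts, so calls among them are no test and are not given for these settings. Leaving out 1 library gave 0 to 256 genes, with 0 without NC A (333 at an unadjusted p under 0.05), 256 without anti-miR-124 A, 57 without NC B (37 of them genes described) and 12 without anti-miR-124 B, each with 1 library left in a group that was assumed to vary like the others. The labels do not say what a shared number marks, and no shared shift was seen, as libraries that share a number deviated from the means of their groups with a correlation of -0.16 over 17766 genes, and of -0.21 without the 43 genes. With 2 libraries per group this does not show whether the numbers pair the eyes. A block with the numbers crossed, added after the data were seen, called 160 of 17766 genes. The cause of these differences was not tested. With 2 libraries per group and 1 of them holding nearly all counts of these genes, the data give no estimate of how lens genes vary between control retinas. Genes with under 10 counts in the other libraries have wide counting errors, so that their ratios are only orders of size.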
